A study of Mus musculus with 8 samples.

Results

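The 44 genes described here encode the DNA replication machinery and its G1/S regulators, and their transcripts were measured in haematopoietic stem cells of 4 mouse genotypes. The genes were taken from a list of symbols that holds origin licensing factors, helicase subunits, polymerases, the sliding clamp and its loader, enzymes of nucleotide supply, G1/S regulators and factors of chromatin and histone supply. All 44 were among the 33641 symbols of the tables, all were among the 16064 genes tested, and each reached at least 1 TPM in every library. TPM is transcript abundance per length, scaled to a fixed total per library.

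The cells were sorted from bone marrow of C57BL/6 mice that carried Mx1-Cre, a recombinase expressed under an interferon-responsive promoter and therefore not restricted to stem cells. Deletion had been induced with 6 injections of polyI:C at 10 mg/kg, given on alternate days, and cells were taken 1 week later. The groups were Scribble null (Scribble-/-), Yap1 Taz null (Taz-/-;Yap1-/-), triple null (Scribble-/-;Taz-/-;Yap1-/-) and wild type, with 2 libraries each. The wild-type group also carried Mx1-Cre, so the transgene was shared by all 4 groups. Scribble organises cell polarity at the membrane. Yap1 and TAZ switch on transcription with TEAD factors unless Hippo signalling holds them back.

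Replication starts when the origin recognition complex, Cdc6 and Cdt1 load the Mcm2 to Mcm7 ring onto DNA in G1. Cdc45 and the GINS complex then join the ring to form the active helicase, and polymerases, primase, the clamp Pcna and ligase copy the strands behind it. Many of these genes are transcribed at the G1/S boundary under E2F factors, and adult haematopoietic stem cells are known for dividing rarely, so that few are in S phase at a time.

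Each library had between 14024 and 14970 symbols at 1 TPM or more, and log2 levels of the 2 libraries of a genotype correlated across genes at r = 0.953 to 0.965. Sequencing depth cannot be read from TPM and is unknown. Whether replicate libraries are from different animals is not stated in the labels, so the p-values cover only the spread of these libraries, technical spread included. Kit, a receptor that marks stem and progenitor cells, was 268 and 281 TPM in wild type and 384 to 532 TPM in the null libraries. Ly6a, another stem cell marker, went the other way, at 359 and 417 TPM in wild type and 148 to 255 TPM in the null libraries. The 12 stem cell markers summed to 2141 and 2215 TPM in wild type and 2234 to 2700 TPM in the null libraries. In contrast, the macrophage gene C1qa was listed at 0 and the T cell gene Cd3e stayed below 1 TPM. Other markers of the same lists were not low, with Lyz2 at 176 to 292 TPM and Cd68 at 17.4 to 46.1 TPM among the monocyte and macrophage genes, and Nkg7 at 56.2 to 152 TPM among the T and NK cell genes. Whole-gene levels of Scrib, Yap1 and Wwtr1 (the gene of TAZ) do not show the loss of single exons and were not lower in all libraries labelled as null for them: Scrib was 6.25 and 7.63 TPM in Scribble null, 14.5 and 7.54 TPM in triple null, and 8.19 and 9.29 TPM in wild type. Yap1 was 2.13 and 6.63 TPM in Yap1 Taz null and 2.25 and 2.37 TPM in triple null, against 2.00 and 2.15 TPM in wild type. Wwtr1 was 1.09 and 1.149 TPM in Yap1 Taz null and 1.92 and 0.775 TPM in triple null, against 0.730 and 1.19 TPM in wild type. The Y-linked gene Eif2s3y stood at 4.16 and 4.63 TPM in the Yap1 Taz null libraries, against 45.8 and 56.1 TPM in wild type. Kdm5d and Ddx3y were also low there. Uty, likewise Y-linked, fell less, with 10.6 and 20.0 TPM in Yap1 Taz null, against 25.2 and 25.8 TPM in wild type. Sex and genotype thus cannot be told apart in comparisons with the Yap1 Taz null group.

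Scribble null cells had the lowest replication gene expression of the 4 genotypes. The 44 genes together summed to 2488 ± 81.0 TPM in Scribble null, 3479 ± 161 TPM in Yap1 Taz null, 3159 ± 125 TPM in triple null and 3747 ± 113 TPM in wild type (SD, n = 2 each). Relative to wild type, that sum was 66.4% in Scribble null, 92.8% in Yap1 Taz null and 84.3% in triple null. No library of 1 genotype overlapped with another in this sum, which was 2430 and 2545 TPM in Scribble null, 3365 and 3593 TPM in Yap1 Taz null, 3070 and 3247 TPM in triple null, and 3667 and 3827 TPM in wild type. In bulk samples, fewer cycling cells and less of these transcripts per cell cannot be told apart.

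The lowest place of Scribble null held for most single genes. The Scribble null mean was the lowest of the 4 for 35 of the 44 genes, against 22.6% of all tested genes. Both Scribble null libraries were below all of the other 6 for 24 of the 44 genes, against 4.98% of all tested genes, and above them for 0, against 7.05%. The Yap1 Taz null mean was the highest of the 4 for 18 genes and the wild-type mean for 22, against 28.3% and 18.1% of all tested genes. The triple null mean lay between a lower Scribble null mean and a higher wild-type mean for 32 genes, an order found in 14.8% of all tested genes.

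**Figure D1:**
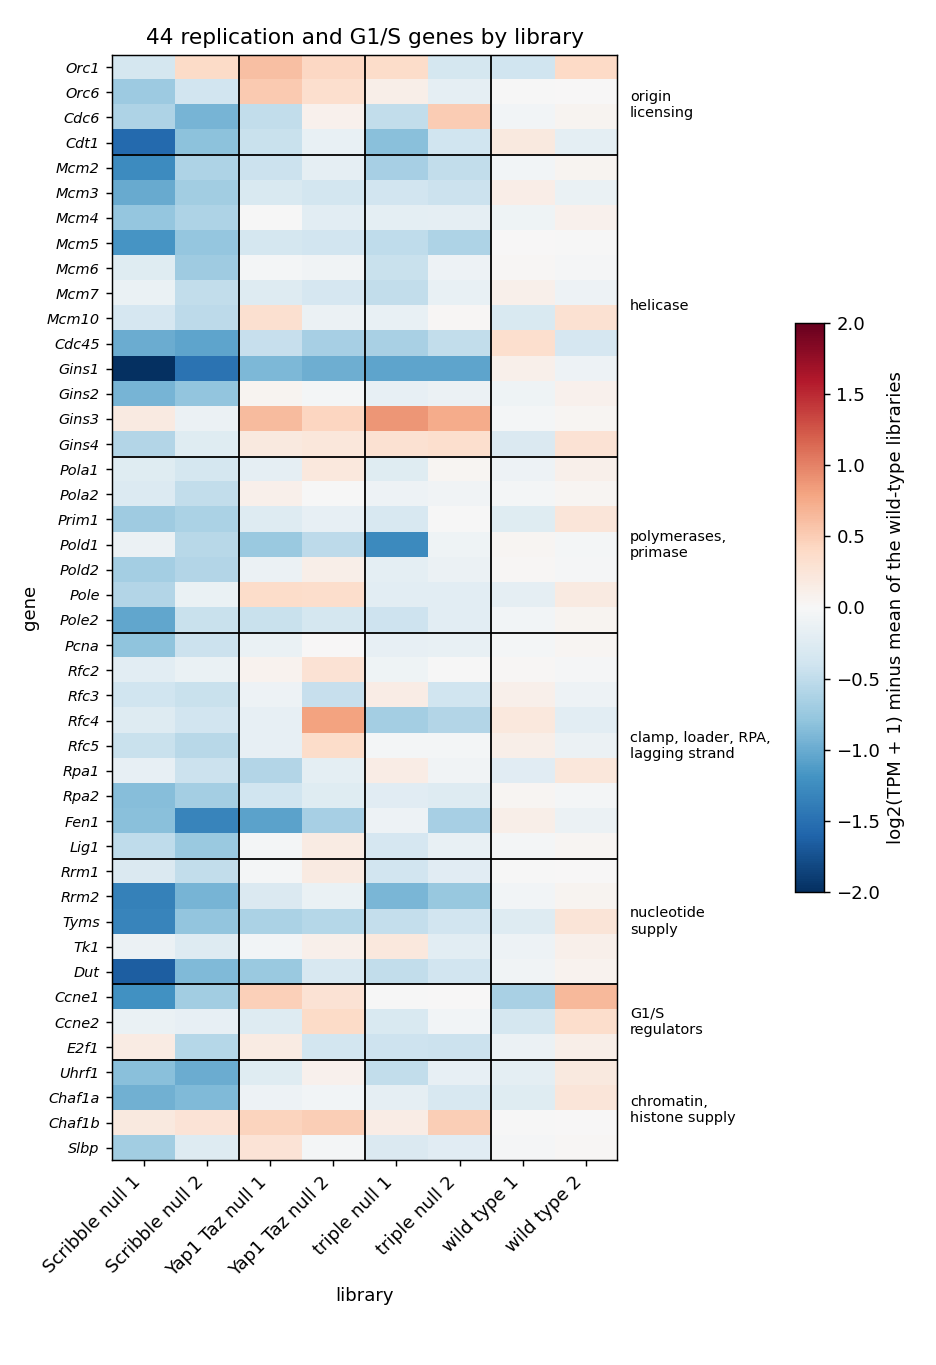
Heat map of the 44 genes (rows, grouped by role) in the 8 libraries (columns); colour gives log2(TPM + 1) minus the mean of the wild-type libraries. The Scribble null columns are blue for most genes, with Gins1 the darkest, whereas Chaf1b is red in all 3 null genotypes.

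Levels were compared with limma on log2(TPM + 1), with p-values adjusted over all 16064 tested genes and 0.05 as the threshold. Between Scribble null and wild type, 5 of the 44 genes fell and 0 rose, when 0.71% of all tested genes were called lower and 0.591% higher. The 5 were the helicase genes Gins1, Gins2, Mcm3 and Mcm5 and the ribonucleotide reductase gene Rrm2. Without adjustment, at p under 0.05, 24 genes were lower and 0 higher, against 6.16% and 12% of all tested genes. Libraries of the 2 groups did not overlap for 36 genes that were lower and 1 that was higher, against 15.7% and 33.2% of all tested genes. The median log2 difference of the 44 genes was -0.58, with 41 below 0, whereas the median of all tested genes was 0.14, with 37.3% below 0.

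Relative to that shift of all genes, the median of the 44 was -0.73. When libraries were scaled by median ratios, which brings the median of all genes to 0.01, 14 of the 44 were called lower and 43 were below 0, while calls over all genes stood at 58 higher and 199 lower, in place of 95 higher and 114 lower. When any 1 library other than Scribble null 2 was left out, 0 of the 44 were called, and 8 were called without Scribble null 2. The sample titles number the libraries of each genotype as experiments 1 and 2, and with that number as a block Rrm2 stayed past the threshold, whereas Gins1 (limma, adjusted p = 0.0576), Gins2 (0.0588), Mcm3 (0.0843) and Mcm5 (0.0817) did not. No direction of the 5 turned under any of the 16 alternatives.

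**Figure D2:**
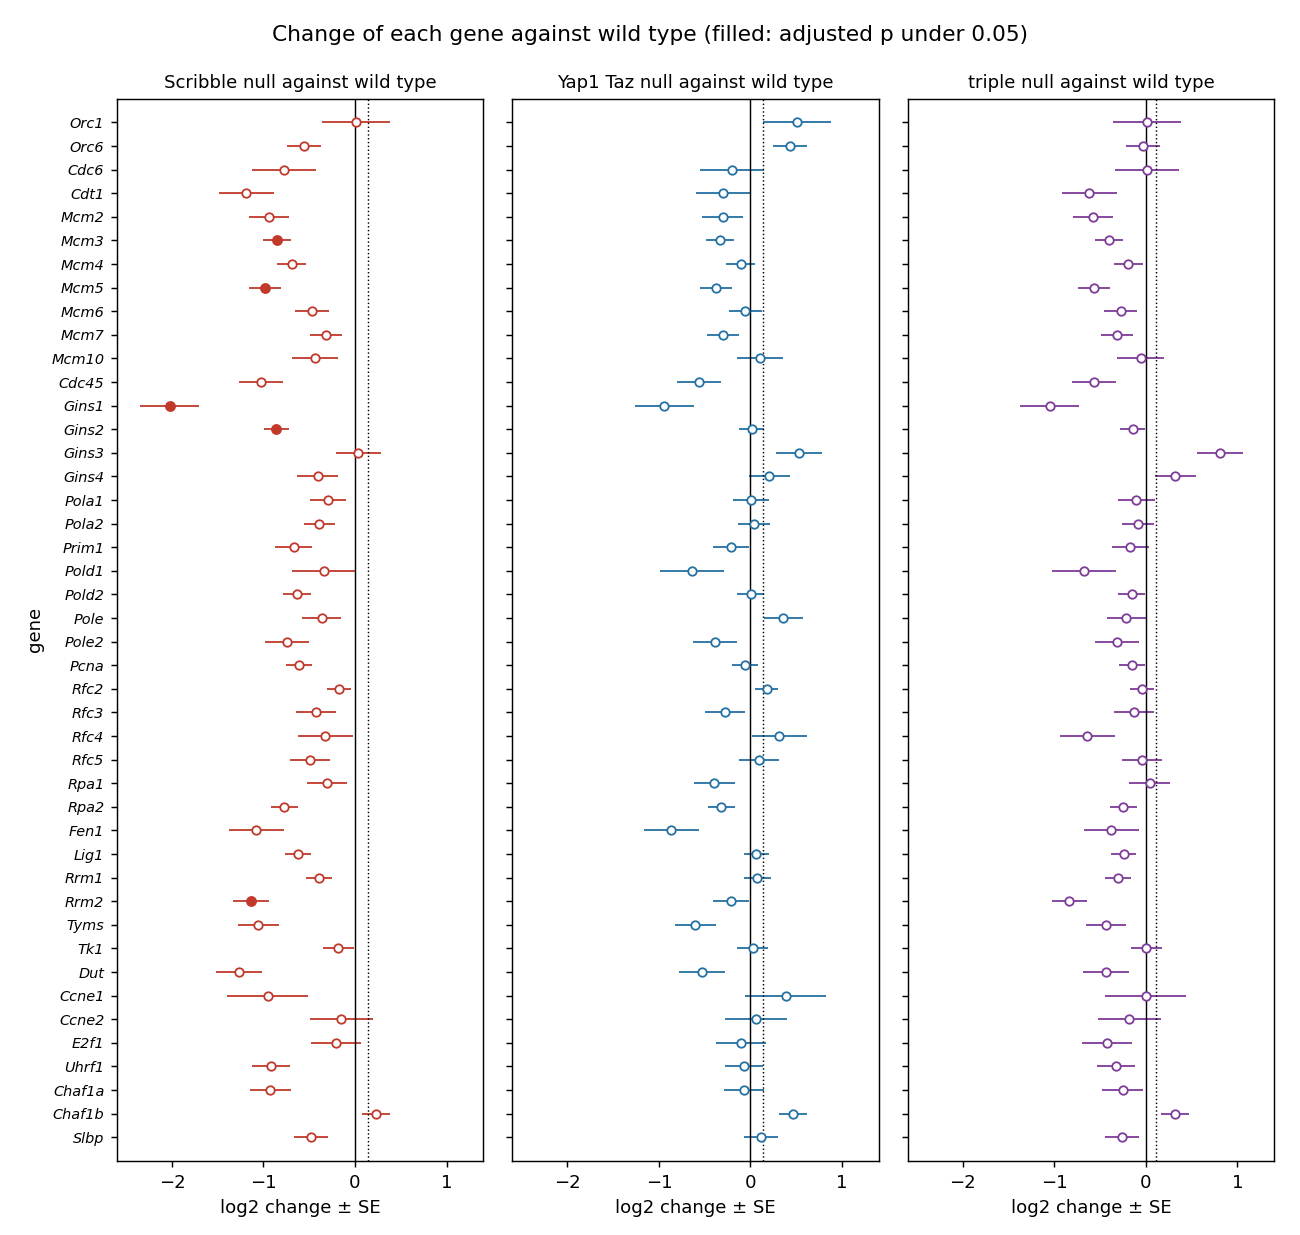
Log2 difference (± SE) of each of the 44 genes between each null genotype and wild type; filled points passed the test, the solid line marks 0 and the dotted line the median of all tested genes. The 5 filled points, Gins1, Gins2, Mcm3, Mcm5 and Rrm2, are all in the Scribble null panel, and the panels are compared by the direct tests between null genotypes.

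The promoters of Mcm3, Mcm5 and Rrm2 are shown, the called genes for which a promoter sequence was available. Gins1 and Gins2, which were also called, had no promoter entry and were not searched. Sequences are from RefSeq on build GRCm38.p6, from 250 bases before to 50 after the transcription start, and 37 of the 44 genes matched an entry. The letters searched on both strands were TTTCCCGC, TTTCGCGC, TTTGCCGC and TTTGGCGC for E2F, which can overlap each other as in Mcm5. The promoter of Mcm3 lies at chr1:20820263-20820562 on the minus strand, that of Mcm5 at chr8:75109259-75109558 on the plus strand and that of Rrm2 at chr12:24708004-24708303 on the plus strand. Capitals mark E2F matches in Mcm3 and Mcm5 and the CCAAT box in Rrm2, which had no E2F match.
Mcm3: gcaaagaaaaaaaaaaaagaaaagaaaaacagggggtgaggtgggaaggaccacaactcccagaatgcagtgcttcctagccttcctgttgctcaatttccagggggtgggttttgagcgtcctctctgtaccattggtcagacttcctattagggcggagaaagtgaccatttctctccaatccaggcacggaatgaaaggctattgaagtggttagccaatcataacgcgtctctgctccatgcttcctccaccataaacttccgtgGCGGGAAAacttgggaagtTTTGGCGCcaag
Mcm5: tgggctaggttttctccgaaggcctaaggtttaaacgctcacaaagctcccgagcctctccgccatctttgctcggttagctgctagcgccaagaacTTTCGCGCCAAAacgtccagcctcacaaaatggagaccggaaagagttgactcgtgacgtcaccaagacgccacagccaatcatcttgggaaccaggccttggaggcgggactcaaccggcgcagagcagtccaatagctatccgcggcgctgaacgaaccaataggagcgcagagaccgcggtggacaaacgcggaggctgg
Rrm2: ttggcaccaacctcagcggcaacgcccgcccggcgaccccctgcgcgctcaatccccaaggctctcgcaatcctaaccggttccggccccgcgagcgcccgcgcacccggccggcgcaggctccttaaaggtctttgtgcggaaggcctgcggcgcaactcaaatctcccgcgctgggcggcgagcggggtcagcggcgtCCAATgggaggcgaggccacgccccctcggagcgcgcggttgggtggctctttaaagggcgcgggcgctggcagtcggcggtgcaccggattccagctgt

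E2F letters were present in 12 of the 37 promoters (32.4%), against 2.26% of 32851 promoters of the same length. Among the roles they were found in 3 of 4 licensing genes, 5 of 8 helicase genes and 3 of 6 polymerase and primase genes, and in 0 of 5 genes of nucleotide supply. The CCAAT box (CCAAT) was present in 22 promoters (59.5%), against 37.4% of all, and in each of the 8 helicase promoters. The cell cycle homology region (TTTGAA or TTCGAA) was present in 6 (16.2%), against 19.2%. Between Scribble null and wild type the median log2 difference was -0.45 over the 12 genes with an E2F match and -0.62 over the 25 without. A match is a description of letters and not a site shown to be bound.

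**Figure D3:**
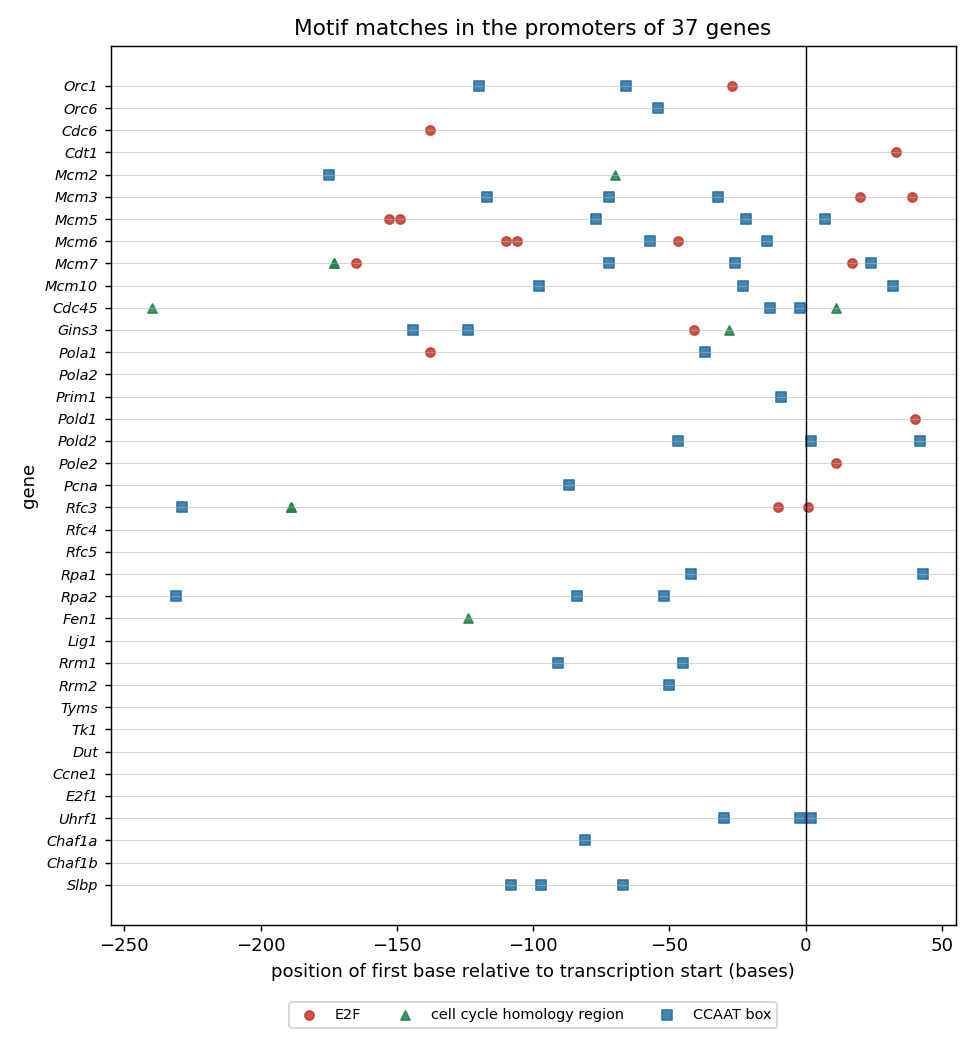
Positions of motif matches in the promoters of 37 genes, in bases from the transcription start (vertical line); circles mark E2F letters, triangles the cell cycle homology region and squares the CCAAT box. E2F letters are found in 12 promoters, most of them of licensing, helicase and polymerase genes.

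Of the 4 origin licensing genes, 0 were called by limma in Scribble null against wild type, and their median log2 difference was -0.66. At an unadjusted p under 0.05, 2 of them were lower, against 6.16% of all tested genes. Cdt1, which brings the Mcm ring to origins, had 10.7 and 18.5 TPM in Scribble null, 24.3 and 30.0 TPM in Yap1 Taz null, 18.2 and 25.2 TPM in triple null, and 38.3 and 29.1 TPM in wild type. Both Scribble null and both triple null libraries were below both wild-type libraries. The log2 difference between Scribble null and wild type was -1.19 ± 0.30 (SE; limma, adjusted p = 0.107).

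Orc6, a subunit of the origin recognition complex, had 32.1 and 41.3 TPM in Scribble null, 77.8 and 68.2 TPM in Yap1 Taz null, 58.5 and 47.4 TPM in triple null, and 53.7 and 54.2 TPM in wild type. It was low in Scribble null and high in Yap1 Taz null, with no overlap of either group with wild type. Between Scribble null and Yap1 Taz null directly, Orc6 differed by -0.98 on the log2 scale (95% interval -1.41 to -0.55; limma, adjusted p = 0.0997). Orc1, the largest subunit of that complex, had Scribble null libraries of 16.3 and 27.9 TPM, almost the same as the wild-type libraries of 15.9 and 28.0 TPM. Its log2 difference between these groups depended on the scaling, at 0.01 in TPM, -0.14 with median-ratio scaling and -0.50 in the further table of the whole series. Cdc6, the loading ATPase, was 17.3 and 13.8 TPM in Scribble null, below the other 6 libraries, which ran to 39.2 TPM in triple null 2.

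The 12 helicase genes gave 4 of the 5 calls in Scribble null, and their median log2 difference from wild type was -0.77. Gins1 (Psf1 of the GINS complex, GRCm38 chr2:150905400-150931280) had the lowest log2 difference of the 44 genes in Scribble null. Gins1 stood at 7.65 and 17.3 TPM in Scribble null, 26.4 and 25.1 TPM in Yap1 Taz null, 23.7 and 23.8 TPM in triple null, and 53.9 and 46.9 TPM in wild type. All 6 null libraries were far below both wild-type libraries, and the Scribble null libraries were the lowest, with the first well under the second. Gins1 fell by 2.03 ± 0.32 on the log2 scale in Scribble null (limma, adjusted p = 0.0342). In Yap1 Taz null it was 51.1% of the wild-type mean (log2 difference -0.94, 95% interval -1.69 to -0.19; limma, adjusted p = 0.252). In triple null it was 47.1% of the wild-type mean (log2 difference -1.05, 95% interval -1.80 to -0.30; limma, adjusted p = 0.289).

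Gins2 (Psf2, a partner of Gins1 in the same complex, chr8:120578633-120589304) had 52.6 and 58.1 TPM in Scribble null, 105 and 98.7 TPM in Yap1 Taz null, 89.7 and 93.2 TPM in triple null, and 95.0 and 108 TPM in wild type. The Scribble null libraries were well below the other 6, and the triple null libraries were just below both wild-type libraries. Gins2 fell by 0.86 ± 0.14 on the log2 scale in Scribble null (limma, adjusted p = 0.0346). In Yap1 Taz null the log2 difference from wild type was 0.01, with an interval of -0.31 to 0.33. The annotated exons of Gins2 share 2758 bases, 67.3% of its exonic length, with Gse1 on the other strand. Whether counting used strand is not given in the sources used here, so the level of Gins2 is uncertain. Gse1 itself was not lower in Scribble null, at 86.4 and 87.7 TPM, against 69.6 and 79.9 TPM in wild type.

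In TPM, the 4 GINS subunits, which form a complex with equal numbers of each, did not follow each other across genotypes. The TPM ratio of Gins1 to Gins2 was 0.146 and 0.298 in Scribble null, 0.251 and 0.254 in Yap1 Taz null, 0.264 and 0.255 in triple null, and 0.567 and 0.436 in wild type. Every null library had a lower ratio than both wild-type libraries. The ratio carries the uncertainty of Gins2 from the exons it shares with Gse1. Gins3 (Psf3) had 8.26 and 6.56 TPM in Scribble null, 11.7 and 9.97 TPM in Yap1 Taz null, 14.1 and 12.6 TPM in triple null, and 6.95 and 7.37 TPM in wild type. In TPM it was highest in triple null and overlapped with wild type only in Scribble null. The log2 difference of Gins3 between triple null and wild type was 0.81 (95% interval 0.24 to 1.39; limma, adjusted p = 0.288), and 0.21 in the further table of the whole series. In that table Yap1 Taz null was 0.34 above wild type, so that the difference between triple null and Yap1 Taz null was -0.13, in place of 0.28 in TPM. Between Scribble null and wild type, Gins3 differed by -0.51 in that table, in place of 0.04 in TPM. All 4 subunits were lower in Scribble null there, with Gins1 at -1.91, Gins2 at -0.76 and Gins4 at -0.32. Gins4 (Sld5) was 29.6 and 37.7 TPM in Scribble null and 55.5 and 57.0 TPM in triple null, against 36.4 and 54.9 TPM in wild type.

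**Figure D4:**
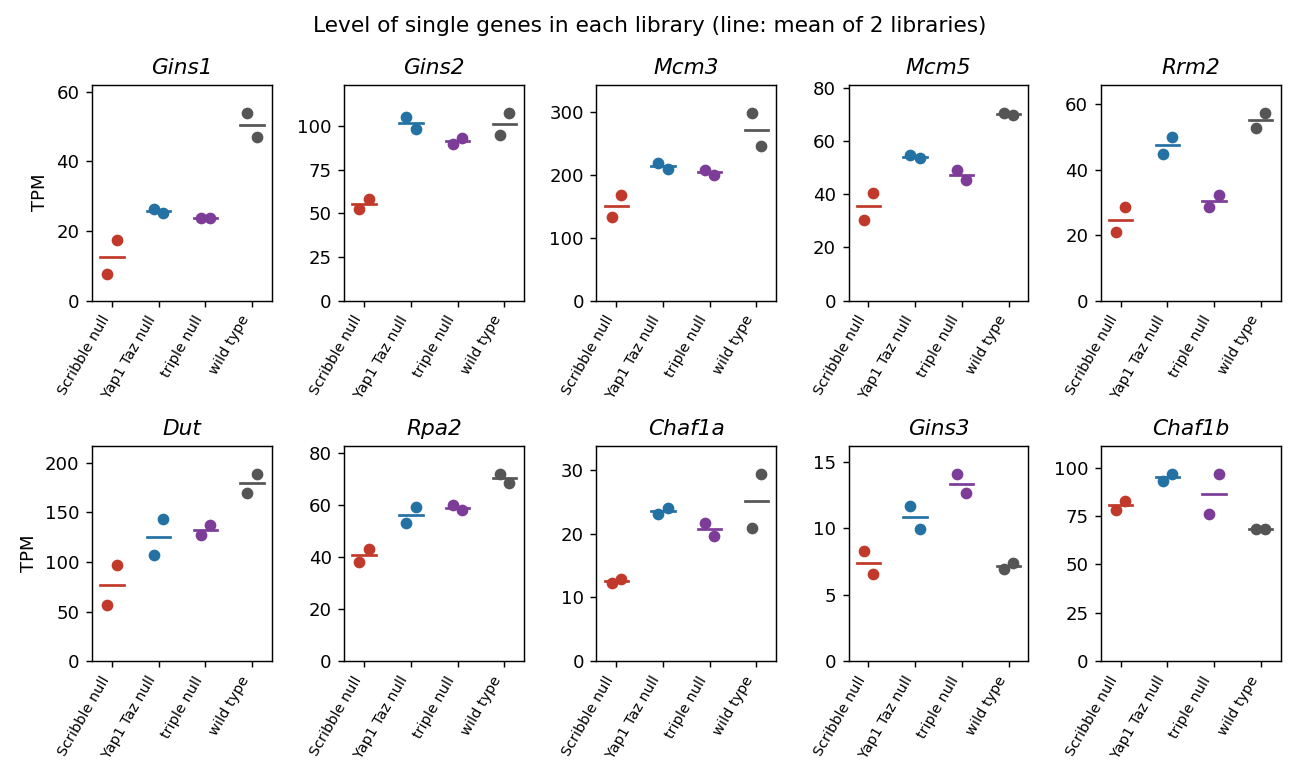
TPM of 10 genes in each library (points) with the mean of the 2 libraries (line), by genotype; each axis starts at 0. Gins1 is lower than wild type in all 3 null genotypes, Gins2 in Scribble null lies below the other 6 libraries, Chaf1b is above wild type in all 3 null genotypes, and Gins3 in Yap1 Taz null and triple null.

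The 6 subunits of the Mcm2 to Mcm7 ring summed to 550.4 and 538 TPM in Scribble null, 724 and 708 TPM in Yap1 Taz null, 624 and 689.8 TPM in triple null, and 883 and 814 TPM in wild type. The ring as a whole was lowest in Scribble null and highest in wild type, with no overlap of any null genotype with wild type. Mcm3 (chr1:20802968-20820312), one of the ring ATPases, had 134 and 167 TPM in Scribble null, 219 and 210.0 TPM in Yap1 Taz null, 208 and 199.8 TPM in triple null, and 298 and 245 TPM in wild type. Mcm5 (chr8:75109569-75128439), which borders the gate through which DNA enters the ring, had 30.5 and 40.6 TPM in Scribble null, 54.6 and 53.5 TPM in Yap1 Taz null, 49.2 and 45.4 TPM in triple null, and 70.6 and 70.0 TPM in wild type. Both genes were lowest in Scribble null, intermediate in the other null genotypes and highest in wild type, with no overlap between Scribble null and the other groups. Mcm3 fell by 0.85 ± 0.15 and Mcm5 by 0.98 ± 0.17 on the log2 scale in Scribble null (limma, adjusted p = 0.0437 for each).

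Mcm2 and Mcm4, other subunits of the ring, were 52.8% and 61.3% of the wild-type mean in Scribble null (limma, adjusted p = 0.0949 and 0.0903). Mcm6 and Mcm7 were less far from wild type, at 72.9% and 80.7%. Mcm7 had almost the same mean in the 3 null genotypes, 133 ± 22.9 TPM in Scribble null, 134 ± 4.74 TPM in Yap1 Taz null and 133 ± 22.1 TPM in triple null, against 165 ± 17.7 TPM in wild type. Cdc45, which joins GINS and the ring in the active helicase, was 20.2 and 19.2 TPM in Scribble null, against 52.3 and 32.5 TPM in wild type, where the 2 libraries were far apart. The log2 difference of Cdc45 was -1.03 ± 0.24 (limma, adjusted p = 0.0946). Mcm10, which helps to activate the helicase, was 28.9 and 25.3 TPM in Scribble null, just below the first wild-type library at 29.6 TPM and well below the second at 46.0 TPM.

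Among the 7 polymerase and primase genes, 0 were called by limma in Scribble null and 3 were lower at an unadjusted p under 0.05, against 6.16% of all tested genes. All 7 log2 differences were below 0, from -0.74 to -0.30. Pold2, the second subunit of polymerase delta, had 41.6 and 44.3 TPM in Scribble null, 61.8 and 73.1 TPM in Yap1 Taz null, 58.1 and 62.0 TPM in triple null, and 68.0 and 66.1 TPM in wild type. Prim1, the catalytic primase subunit that starts each new strand, had 39.6 and 42.0 TPM in Scribble null, 54.5 and 58.3 TPM in Yap1 Taz null, 52.0 and 64.9 TPM in triple null, and 55.2 and 77.4 TPM in wild type. For both, the Scribble null libraries were below all of the other 6. The log2 difference from wild type was -0.63 ± 0.15 for Pold2 (limma, adjusted p = 0.0954) and -0.67 ± 0.20 for Prim1 (limma, adjusted p = 0.147).

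Pole and Pole2, subunits of polymerase epsilon, lay on opposite sides of wild type in Yap1 Taz null, and neither was called there. Pole, the catalytic subunit of polymerase epsilon, was 43.7 and 43.0 TPM in Yap1 Taz null, above all of the other 6 libraries, whereas its partner Pole2 was 19.8 and 21.2 TPM there, below the wild-type libraries at 26.0 and 28.4 TPM. Pold1, the catalytic subunit of polymerase delta, spread widely in triple null, at 30.7 and 71.6 TPM, against 77.8 and 73.7 TPM in wild type. Pola1 and Pola2 of polymerase alpha were close to each other in every null genotype, at 80.9% and 75.9% of the wild-type mean in Scribble null, 101.3% and 102.9% in Yap1 Taz null, and 93.1% and 94.05% in triple null.

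The 9 genes of the clamp, the clamp loader, single-strand binding and lagging-strand maturation had log2 differences from -1.08 to -0.18 in Scribble null, with 0 called by limma. Of the 9, 4 were lower at an unadjusted p under 0.05, against 6.16% of all tested genes. Rpa2, a subunit of the protein that coats single-stranded DNA, had 38.3 and 43.2 TPM in Scribble null, 53.2 and 59.3 TPM in Yap1 Taz null, 59.8 and 58.3 TPM in triple null, and 72.0 and 68.4 TPM in wild type. Lig1, the ligase that joins Okazaki fragments, had 179.6 and 153 TPM in Scribble null, 249.6 and 286 TPM in Yap1 Taz null, 202 and 229.9 TPM in triple null, and 248 and 263 TPM in wild type. Both genes were lowest in the Scribble null libraries without overlap with the other 6. Their log2 differences were -0.77 ± 0.15 for Rpa2 (limma, adjusted p = 0.0566) and -0.62 ± 0.14 for Lig1 (limma, adjusted p = 0.0859), and both were called with median-ratio scaling (adjusted p = 0.0267 and 0.0380).

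Pcna, the sliding clamp and the most abundant of the 44 transcripts, was 244 and 319 TPM in Scribble null, against 416 and 441 TPM in wild type (limma, adjusted p = 0.0905). The clamp loader subunits Rfc2 to Rfc5 were closer to wild type, at 88.5%, 74.1%, 78.8% and 69.9% of its mean in Scribble null. Rfc4 reached 91.3 TPM in Yap1 Taz null 2, above all other libraries, of which the next was wild type 1 at 60.1 TPM. Annotated exons of Rfc4 share 12.7% of their length with Eif4a2 on the other strand, which stood at 559 to 974 TPM. Fen1, the flap nuclease of Okazaki fragments, was 11.0 and 7.61 TPM in Scribble null, 9.23 and 12.6 TPM in Yap1 Taz null, 19.1 and 12.6 TPM in triple null, and 22.4 and 18.7 TPM in wild type. It overlapped with wild type in triple null and not in the other null genotypes. Its annotated exons share 78.8% of their length with the antisense gene Gm10143, so the level of Fen1 is uncertain. Rpa1, the large subunit beside Rpa2, overlapped with wild type in every null genotype.

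The 5 genes of nucleotide supply had the lowest median of the roles in Scribble null, at -1.06. In all 5 both Scribble null libraries were below both wild-type libraries, against 15.7% of all tested genes. Rrm2 (chr12:24708241-24714146), the subunit of ribonucleotide reductase whose level follows S phase, had 21.0 and 28.5 TPM in Scribble null, 44.9 and 49.9 TPM in Yap1 Taz null, 28.6 and 32.3 TPM in triple null, and 52.9 and 57.3 TPM in wild type. It was low in Scribble null and nearly as low in triple null, and closer to wild type in Yap1 Taz null. Rrm2 fell by 1.14 ± 0.19 on the log2 scale in Scribble null (limma, adjusted p = 0.0384). In triple null the difference was -0.83 (95% interval -1.28 to -0.39; limma, adjusted p = 0.162).

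Dut, the enzyme that keeps dUTP out of DNA, had 56.4 and 96.5 TPM in Scribble null, 107 and 143 TPM in Yap1 Taz null, 127 and 138 TPM in triple null, and 169.6 and 189 TPM in wild type. All null libraries were below wild type, and the first Scribble null library was far below the second. Its log2 difference in Scribble null was -1.27 ± 0.25 (limma, adjusted p = 0.0607), and it passed the threshold without Scribble null 2 (adjusted p = 0.0175). Tyms, which makes thymidylate, was 47.8% of the wild-type mean in Scribble null and 64.6% in Yap1 Taz null (limma, adjusted p = 0.0731 and 0.277). Tk1, the thymidine salvage kinase, and Rrm1, the large reductase subunit, were nearer to wild type, at 87.9% and 76.0% in Scribble null.

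The 3 G1/S regulators overlapped with wild type for the most part, and 0 were called by limma or had an unadjusted p under 0.05 in Scribble null. Ccne1, cyclin E1, was the least abundant of the 44 transcripts, with 1.54 and 2.63 TPM in Scribble null, 7.19 and 6.23 TPM in Yap1 Taz null, 4.87 and 4.91 TPM in triple null, and 2.77 and 8.22 TPM in wild type. The Scribble null libraries were the lowest, and the wild-type libraries were too far apart for a precise difference (-0.96 ± 0.44 on the log2 scale; limma, adjusted p = 0.304). E2f1, an activator of G1/S genes, had 57.5 and 34.1 TPM in Scribble null, 57.3 and 39.7 TPM in Yap1 Taz null, 38.1 and 37.8 TPM in triple null, and 47.2 and 55.7 TPM in wild type. Its Scribble null libraries held both the highest and the lowest of the 8 values. Ccne2, cyclin E2, ranged from 6.35 to 11.2 TPM over all libraries with overlap of every group.

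Of the 4 genes of chromatin and histone supply, 0 were called by limma in Scribble null and 3 were lower at an unadjusted p under 0.05, against 6.16% of all tested genes. Uhrf1 and Chaf1a, which act on newly copied chromatin, were among these 3. Uhrf1, which carries DNA methylation through replication, had 39.0 and 34.6 TPM in Scribble null, 59.5 and 74.8 TPM in Yap1 Taz null, 49.7 and 62.6 TPM in triple null, and 61.3 and 80.4 TPM in wild type (limma, adjusted p = 0.0879 for Scribble null). Chaf1a, the large subunit of the histone chaperone CAF-1, had 12.3 and 12.95 TPM in Scribble null, 23.1 and 24.0 TPM in Yap1 Taz null, 21.7 and 19.7 TPM in triple null, and 21.0 and 29.4 TPM in wild type (limma, adjusted p = 0.0954 for Scribble null). In both genes the Scribble null libraries stood below all of the other 6. Annotated exons of Chaf1a share 52.5% of their length with Ubxn6 on the other strand, so the level of Chaf1a is uncertain.

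Chaf1b, the middle subunit of the same chaperone, ran the other way. It had 78.3 and 82.6 TPM in Scribble null, 93.2 and 96.8 TPM in Yap1 Taz null, 75.9 and 96.5 TPM in triple null, and 68.4 and 68.5 TPM in wild type. All 6 null libraries were above both wild-type libraries, the only one of the 44 genes with that pattern. Of all tested genes, 33.2% in Scribble null, 32% in Yap1 Taz null and 30.9% in triple null were higher than wild type without overlap. The log2 difference of Chaf1b from wild type was 0.23 in Scribble null, 0.47 in Yap1 Taz null and 0.32 in triple null (limma, adjusted p = 0.463, 0.233 and 0.505). It was above 0 with each scaling tried, but with median-ratio scaling it was only 0.07 in Scribble null, 0.31 in Yap1 Taz null and 0.18 in triple null. Slbp, which binds histone transcripts, was 72.1% of the wild-type mean in Scribble null and 109.1% in Yap1 Taz null.

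Between Yap1 Taz null and wild type, 0 of the 44 genes were called by limma, when 0.517% of all tested genes were called lower and 0.473% higher. At an unadjusted p under 0.05, 4 were lower (Cdc45, Gins1, Fen1 and Tyms) and 1 was higher (Chaf1b), against 4.2% and 10.1% of all tested genes. Libraries did not overlap for 14 genes that were lower and 6 that were higher, against 14.5% and 32%, and with median-ratio scaling for 27 and 4, against 22.6% and 21.8%. The 6 were Orc1, Orc6, Gins3, Pole, Rfc2 and Chaf1b. The median log2 difference was -0.07, with 24 genes below 0, beside a median of 0.14 over all tested genes, so that the median of the 44 relative to all genes was -0.21. With median-ratio scaling the median was -0.22 and 35 genes were below 0, and in the further table of the whole series it was 0.02.

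Between triple null and wild type, 0 of the 44 genes were called by limma, when 0.355% of all tested genes were called lower and 0.224% higher. Without adjustment, 6 were lower at p under 0.05 (Mcm2, Mcm3, Mcm5, Cdc45, Gins1 and Rrm2) and 1 was higher (Gins3), against 3.45% and 7.5% of all tested genes. Libraries did not overlap for 25 genes that were lower and 3 that were higher (Gins3, Gins4 and Chaf1b), against 14.2% and 30.9%, and with median-ratio scaling for 31 and 1, against 21.4% and 21%. The median log2 difference was -0.23, with 37 genes below 0, beside a median of 0.12 over all tested genes and 37% of them below 0. These comparisons share the wild-type libraries with that of Scribble null.

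Set directly against Scribble null, triple null had higher levels of most of these genes. By limma 0 were called, when 0.112% of all tested genes were called higher and 0.0996% lower. At an unadjusted p under 0.05, 18 of the 44 were higher and 0 lower, against 4.56% and 4.59% of all tested genes. Libraries did not overlap for 29 genes that were higher and 1 that was lower, Rfc4, against 19% and 21.1%. The median log2 difference was 0.42, with 39 genes above 0, whereas the median of all tested genes was -0.01. Gins2 had the smallest p, with a log2 difference of 0.72 (95% interval 0.40 to 1.04; limma, adjusted p = 0.146), followed by Rpa2 at 0.53 (95% interval 0.18 to 0.87; limma, adjusted p = 0.324).

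Scribble null was also set against Yap1 Taz null. By limma 0 were called, when 0.174% of all tested genes were called lower and 0.112% higher. At an unadjusted p under 0.05, 24 were lower and 0 higher, against 5.6% and 4.81%, and libraries did not overlap for 37 genes that were lower and 0 that were higher, against 19.8% and 19%. The median was -0.53, with 42 genes below 0, beside 0.00 and 50.4% below 0 for all tested genes. Gins2 was at -0.87 (95% interval -1.19 to -0.55; limma, adjusted p = 0.0670).

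Triple null and Yap1 Taz null were closer to each other. By limma 0 were called, when 0.112% of all tested genes were called lower and 0.0685% higher. At an unadjusted p under 0.05, 5 were lower (Rrm2, Rfc4, Pole, Rrm1 and Orc6) and 0 higher, against 4.58% and 3.83%, and libraries did not overlap for 20 genes that were lower and 5 that were higher, against 21.3% and 18.7%. The median was -0.14, beside -0.02 for all tested genes. Rrm2 was at -0.62 (95% interval -1.07 to -0.17; limma, adjusted p = 0.422).

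The departure from additivity is the triple null difference from wild type minus the sum of the Scribble null and Yap1 Taz null differences, and a value above 0 means that triple null levels were higher than that sum. By limma 0 of the 44 genes were called, when 0.374% of all tested genes were called higher and 0.261% lower. Without adjustment, 15 were higher and 0 lower at p under 0.05, against 5.02% and 9.5% of all tested genes. The median departure was 0.52, with 37 genes above 0 and 7 below, whereas that of all tested genes was -0.15, with 60.2% below 0. Gins1 was at 1.91 (95% interval 0.86 to 2.97; limma, adjusted p = 0.139) and Rpa2 at 0.84 (95% interval 0.36 to 1.33; limma, adjusted p = 0.152). Without Scribble null 2, Gins1 (adjusted p = 0.0187) and Dut (adjusted p = 0.0432) were called.

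Further genes of the same processes were also compared between Scribble null and wild type. Of 52 other replication and G1/S genes, 0 were called by limma, and 14 were lower and 1 higher at an unadjusted p under 0.05, against 6.16% and 12% of all tested genes. Libraries did not overlap for 25 that were lower and 5 that were higher, against 15.7% and 33.2% of all tested genes. The median log2 difference was -0.32, with 39 genes below 0 and 13 above. The smallest p-values were those of E2f8, a repressor of E2F targets, Tipin, a fork protection factor, Hells, a chromatin remodeller, and the helicase Recql4. E2f8 had 17.4 and 18.2 TPM in Scribble null, 33.7 and 39.3 TPM in Yap1 Taz null, 32.2 and 28.2 TPM in triple null, and 32.4 and 41.5 TPM in wild type (limma, adjusted p = 0.0593 for Scribble null). Its Scribble null libraries were below all of the other 6, and its triple null libraries were just below both wild-type libraries. Recql4 was low in every null genotype, with 1.62 and 1.49 TPM in Scribble null, 2.88 and 3.34 TPM in Yap1 Taz null, 2.05 and 2.06 TPM in triple null, and 5.15 and 5.24 TPM in wild type.

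Of 34 mitosis genes, 2 fell in Scribble null and 0 rose, when 0.71% of all tested genes were called lower and 0.591% higher. At an unadjusted p under 0.05, 18 were lower and 0 higher, against 6.16% and 12% of all tested genes. The median log2 difference of the mitosis genes was -0.51. Ttk, a spindle checkpoint kinase, fell by 1.45 on the log2 scale and Cdca8, of the chromosomal passenger complex, by 0.90 (limma, adjusted p = 0.0346 and 0.0443). Mki67, the proliferation marker, was 77.8 and 92.4 TPM in Scribble null, 147 and 139 TPM in Yap1 Taz null, 114 and 136 TPM in triple null, and 139 and 133 TPM in wild type. Its Scribble null libraries were below all of the other 6 (log2 difference -0.68; limma, adjusted p = 0.0789 against wild type). In triple null the mitosis genes had a median of -0.36 and the 52 other replication genes one of -0.12.

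**Figure D5:**
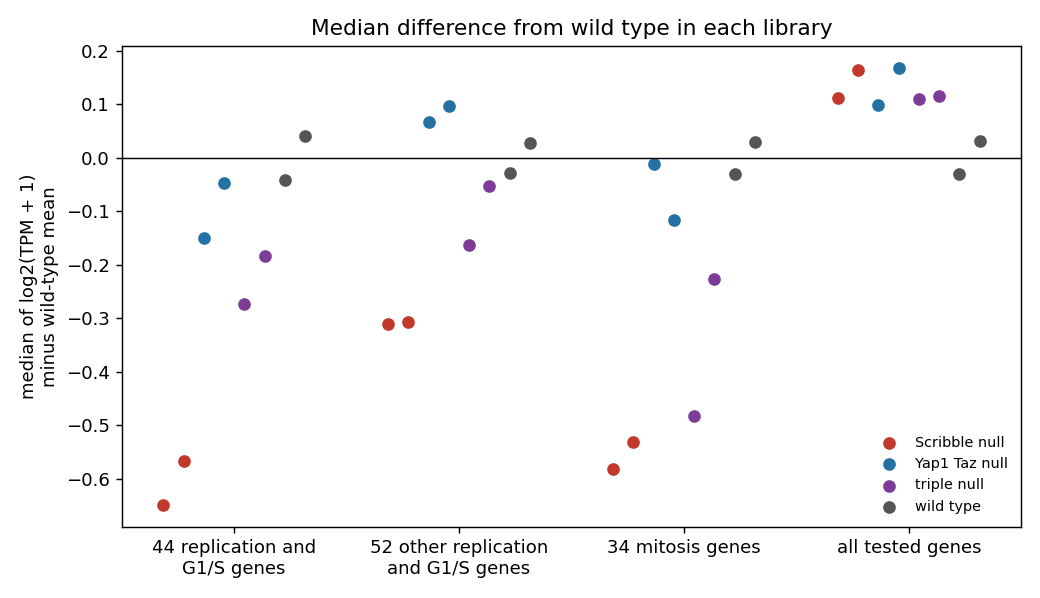
Median over each gene list of log2(TPM + 1) minus the wild-type mean, 1 point per library, for the 44 genes, 52 other replication and G1/S genes, 34 mitosis genes and all tested genes. For the 44 genes the Scribble null libraries sit at -0.65 and -0.57 and the wild-type libraries at -0.04 and 0.04, whereas for all tested genes the null libraries sit between 0.10 and 0.17.

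Markers of other blood cells moved with genotype too. The 6 granulocyte and myeloid progenitor markers summed to 545 and 383 TPM in Scribble null, 259 and 242 TPM in Yap1 Taz null, 311 and 305 TPM in triple null, and 173 and 199 TPM in wild type, most of it from Prtn3. Low genes of that list did not all follow this order. Elane was 1.02 and 0.941 TPM in Scribble null, 1.21 and 0.224 TPM in triple null, and listed at 0 in wild type. Ms4a3 was 0.180 and 1.04 TPM in Scribble null, against 2.23 and 0.949 TPM in wild type. The 7 erythroid markers summed to 343 and 330.1 TPM in Scribble null, 509 and 485 TPM in Yap1 Taz null, 430.2 and 469 TPM in triple null, and 494 and 474 TPM in wild type, nearly all of it from Car2. The 5 megakaryocyte markers summed to 399 and 404 TPM in Scribble null, 579 and 583 TPM in Yap1 Taz null, 435 and 473 TPM in triple null, and 1133 and 1264 TPM in wild type. Between Scribble null and wild type most of the last difference was that of Pf4, at 94.9 and 98.9 TPM in Scribble null, 222 and 211 TPM in Yap1 Taz null, 135 and 222 TPM in triple null, and 816 and 958 TPM in wild type. Vwf of the same list was 73.1 and 74.8 TPM in Scribble null, against 53.5 and 61.7 TPM in wild type. The sums of Scribble null were thus highest in the first list and lowest in the other two, and the part of these cells in the levels of the replication genes was not tested. Transcripts of the mitochondrial genome summed to 32945 and 37763 TPM in Scribble null, against 25644 and 26717 TPM in wild type. They were also above wild type in Yap1 Taz null, at 29516 and 31617 TPM, and in triple null, at 30515 and 27973 TPM.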

How the data were processed

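Per the labels' protocols, RNA of the sorted cells was amplified as cDNA (Ovation RNA-Seq System v2) and tagmented into libraries (Nextera XT). The authors deposited 1 table per library with TPM for each of 33641 symbols, per the file headers, and each table sums to 1000000. The submitters' processing notes name TopHat and the build mm10; the sources used here give no quantifier and do not say how it treated strand or reads with several matches. A further deposited table of the whole series holds linear values in a unit its header does not name and served as an alternative only, with all 44 genes matched by identifier.

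Groups were taken from the sample labels. The 16064 genes that reached 1 TPM in 2 or more of 8 libraries were fitted on the log2(TPM + 1) scale in limma 3.58.1 (R 4.3.3) with 4 group means, a mean-variance trend and moderated variances, and p-values were adjusted by Benjamini-Hochberg over all of them. Errors of log2 differences are SE and intervals are 95%. Differences on this scale understate those of low genes. The fit was first tested on simulated data. Of genes given a log2 change of 0.5, 1 or 2 between Scribble null and wild type, 4%, 49% and 92.4% were called. Genes that were not called may thus still differ. The 44 genes, the other lists and the roles were chosen with earlier results of these data known. Levels in every library are given for genes called in any comparison and for the 2 of each role with the smallest p against wild type; values of other members, among them Gins3, Cdc45, Pole and Chaf1b, were chosen after they were seen. Coordinates are from GENCODE M21 on GRCm38. With BLAST 2.17.0, Cdc6, Pcna and Uhrf1 had a near-identical pseudogene (95% identity over 80% of its length), none above 0.799 TPM.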

Additional observations from a re-analysis of the deposited data

How the results depend on the processing

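Precision is limited by 2 libraries per group, and the depth behind TPM is unknown. For Scribble null against wild type, the 5 calls became 14 with median-ratio scaling, 1 with no filter on low values, 1 in the table of the whole series, 0 with only the groups of the comparison in the fit, and 0 to 8 when each library was left out in turn, where a lone library was assumed to vary like the other groups. They stayed at 5 with a pseudocount of 0.1 TPM, with quantile normalization and with near-identical copies added in, the last chosen after seeing the data. With the replicate number as a block, 2 genes were called, Rrm2 and Dut (adjusted p = 0.0434 for Dut). The titles do not say that an experiment number is shared across genotypes. Deviations of libraries with the same number correlated between groups at r = -0.05 to 0.03 over all tested genes and -0.19 to 0.30 over the 44, so they gave no sign of a pairing over all genes. Leaving out libraries gave 0 to 1 calls for Scribble null against Yap1 Taz null (Gins1 without Scribble null 2, adjusted p = 0.0496) and 0 to 2 for the departure from additivity. Median-ratio scaling moved the median log2 difference to -0.74 in Scribble null, -0.22 in Yap1 Taz null and -0.36 in triple null against wild type, and of the departure to 0.70. The departure was 0.39 in the table of the whole series. The Yap1 Taz null median ranged from -0.19 without wild type 1 to 0.00193 without wild type 2. Counts of calls in the other comparisons were 0 under each alternative run. The departure has no fit with fewer groups. The cause of the other moves was not tested.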
